A study of Mus musculus with 15 samples.

Results

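The 8 genes described here encode the multidomain BCL2 proteins that carry out or hold back mitochondrial apoptosis. They are Bax and Bak1, which encode the effectors BAX and BAK, and Bcl2, Bcl2l1, Bcl2l2, Mcl1, Bcl2a1b and Bcl2a1d, which encode pro-survival proteins. They were chosen by name, mapped from symbol to Ensembl identifier with GENCODE vM21, and make up 8 of the 45706 genes listed in the count table. RNA was sequenced from lineage-marker-negative bone marrow cells of secondary recipients, mice that had received stem and progenitor cells through a series of transplantations. The study asked how loss of PUMA, a BH3-only protein induced by p53, alters haematopoiesis when telomeres are short. The table holds 15 libraries of 4 donor genotypes, with 3 of WT, 4 of Puma-/-, 4 of G3 mTerc-/-Puma+/+ and another 4 whose label is G3 mTerc-/-Puma-/-. The last are called DKO-labelled (double knockout) libraries below.

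WT and Puma-/- donors were telomerase-proficient. G3 marks the third generation of inbreeding without mTerc, the RNA component of telomerase, over which telomeres shorten. All donors were on a CD45.2 C57BL/6J background and 8 to 12 weeks old when their LSK cells were taken. The cells went into lethally irradiated CD45.1 mice, then after 6 weeks into second recipients, and the latter were analysed 16 weeks after that. The deletions are germline and thus not limited to blood cells in the donors, whereas the recipients' own marrow environment carried none of them. The isolation steps given for the RNA deplete lineage-positive cells and name no separation of donor from residual host cells. The labels do not state that each library came from a separate animal, so p-values measure only the spread between these libraries.

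BAX and BAK lie dormant in healthy cells. Once activated by BH3-only proteins such as PUMA, they form pores in the outer mitochondrial membrane, cytochrome c leaves, and caspases are switched on. The pro-survival members bind both the BH3-only proteins and the activated effectors, and in blood cells MCL1 is known to be needed by stem cells, BCL2 by lymphocytes, BCL-XL (from Bcl2l1) by platelets and late erythroid cells, and A1 (from the Bcl2a1 copies) by activated lymphoid and myeloid cells. BAX is also encoded by a classical p53 target gene. These proteins are largely controlled after transcription, through binding, localization and, for MCL1, rapid turnover.

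Depth ran from about 102790000 to about 158370000 counts per library, and all 8 genes passed the filter on low counts. Terc had 4 to 17 counts in each telomerase-proficient library and 0 or 1 in each G3 library. Bbc3, the gene of PUMA, lay between 5.04 and 6.83 normalized CPM (counts scaled to a common library total, with TMM correction for composition) in Puma-/- libraries but between 13.5 and 17.1 in the DKO-labelled libraries, within the range of 9.71 to 23.6 in WT. Bbc3 thus went against the label of that group, and every direction drawn from it below refers to the libraries as labelled. Replicate 2 of that group stood apart, with a summed level of 14 erythroid marker genes at 2824 normalized CPM against 279 to 623 in the other 14 libraries. It was left out of the tests because the study's pictured heatmaps do not show it, although the study's methods state that no exclusions were made. Progenitor genes were abundant in all libraries, with Kit at 114 to 165 and Mpo at 6967 to 13020 normalized CPM. The lineage markers Cd3e and Ly6g did not exceed 26.9 and 2.15, but the lists they belong to were far higher. Summed levels over the 15 libraries were 349 to 677 for 9 T and NK cell genes and 532 to 5071 for 12 late neutrophil genes. Those of 7 monocyte genes were 1154 to 5197. The erythroid gene Hbb-bs reached 79.0 in the 14 libraries tested and 482 in the left-out one, and the platelet gene Pf4 reached 117. RNA of bulk cells does not tell fewer cells of a type from less RNA per cell.

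None of the 8 genes passed an adjusted p of 0.05 in edgeR's quasi-likelihood test in any of 8 comparisons, over 18983 genes tested. In Puma-/- against WT this was 0 of 8 beside 0.079% of all genes, and in G3 mTerc-/-Puma+/+ against WT 0 of 8 beside 0.0369%. For the DKO-labelled libraries it was 0 of 8 beside 0.0632% against WT, 0.306% against Puma-/- and 0.0738% against G3 mTerc-/-Puma+/+. G3 mTerc-/-Puma+/+ against Puma-/- gave 0 of 8 beside 0.801%. The interaction, which asks whether the change with mTerc differs between the Puma labels, gave 0 of 8 beside 0.0527%. The mean of both G3 genotypes against the mean of WT and Puma-/- gave 0 of 8 beside 0.263%.

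At an unadjusted p under 0.05 the edgeR test picked Mcl1 alone in Puma-/- against WT, 1 of 8 genes beside 10.1% of all genes, and Bax and Mcl1 in G3 mTerc-/-Puma+/+ against WT, 2 of 8 beside 3.86%. Bax alone was picked in the DKO-labelled libraries against WT (1 of 8 beside 5.45%) and against Puma-/- (1 of 8 beside 8.42%). Bax and Bcl2a1b were picked in G3 mTerc-/-Puma+/+ against Puma-/- (2 of 8 beside 17.1%), and none between the G3 groups (0 of 8 beside 6.22%). The interaction picked Mcl1 (1 of 8 beside 4.93%), and both G3 genotypes against the other 2 picked Bax (1 of 8 beside 7.76%). Limma-voom also called 0 of 8 in every comparison. DESeq2 called 1, Bax, in G3 mTerc-/-Puma+/+ against Puma-/-, in the DKO-labelled libraries against Puma-/- and in both G3 genotypes against the other 2, and 0 in the other 5 comparisons. The median log2 fold change of the 8 genes lay between 0.0010 and 0.095 across the 8 comparisons, and that of all genes between -0.015 and 0.018.

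**Figure D1:**
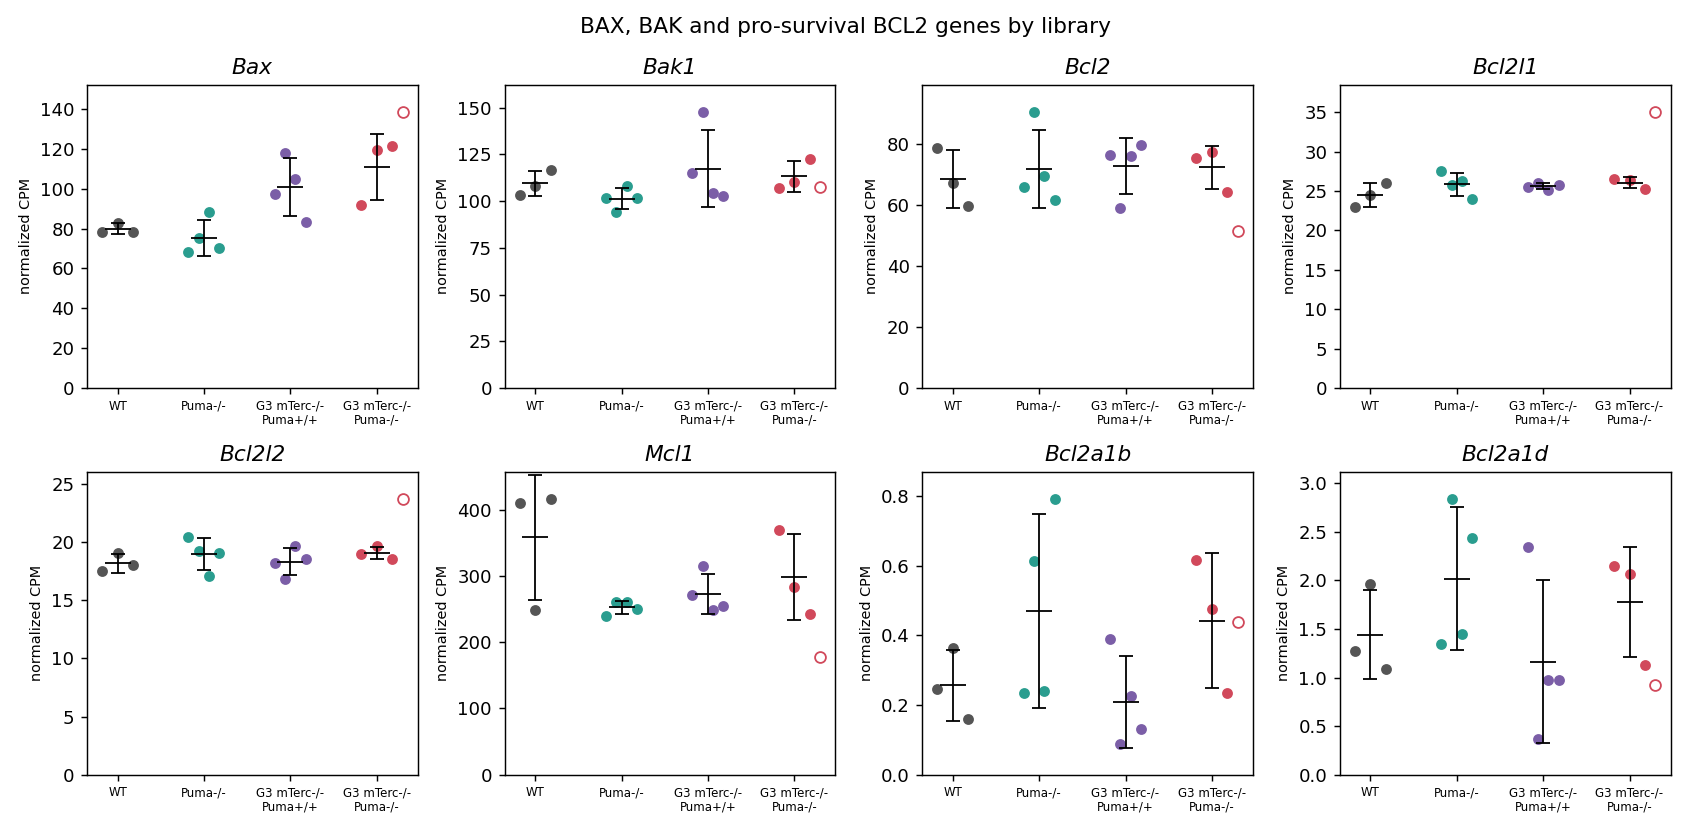
Normalized CPM of the 8 genes in each of the 15 libraries, by genotype. Filled points are libraries used in the tests, the open point is replicate 2 of the DKO-labelled libraries (G3 mTerc-/-Puma-/-), and bars give the mean and SD of the filled points; Bax lies higher in most G3 libraries, Mcl1 is high in 2 of 3 WT libraries, and the A1 copies spread widely within genotypes.

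Bax (ENSMUSG00000003873, GRCm38, chromosome 7, 45461697 to 45466898, minus strand) had the smallest p of the 8 genes in 5 of the 8 comparisons. It was at 78.3, 83.0 and 78.4 normalized CPM in the WT libraries and at 68.1, 75.1, 88.3 and 70.2 in the Puma-/- libraries. It was at 97.4, 118, 105 and 83.2 in G3 mTerc-/-Puma+/+ and at 91.8, 119.7 and 121 in DKO-labelled replicates 1, 3 and 4. All G3 libraries lay above all WT libraries, the closest being 83.2 in G3 mTerc-/-Puma+/+ replicate 4 against 83.0 in WT replicate 2, and the only overlap with Puma-/- was between its replicate 3 and replicate 4 of G3 mTerc-/-Puma+/+. The left-out replicate 2 held the highest level of all, 138 normalized CPM.

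The RefSeq window before the start site of Bax (GRCm38.p6, chr7:45466899-45467148, minus strand, 250 bases, written 5′ to 3′) is shown because Bax is a known p53 target gene. Capitals mark the single match to the consensus half-site of p53, a palindromic pattern, so 1 strand covers both.
Bax upstream: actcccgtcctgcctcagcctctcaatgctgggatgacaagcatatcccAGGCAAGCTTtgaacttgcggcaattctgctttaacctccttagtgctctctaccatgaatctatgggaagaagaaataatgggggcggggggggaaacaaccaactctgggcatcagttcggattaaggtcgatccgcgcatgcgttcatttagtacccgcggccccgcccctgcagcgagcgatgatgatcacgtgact
Such a match stood in 8.36% of 32851 promoter windows of 300 bases (250 before and 50 after the start), in 1 of the 10 windows of the 8 genes, in 1 of the 2 windows of Cdkn1a and in 0 of the 3 windows of Bbc3, both also known p53 targets. No window of Bak1 or of the pro-survival genes held these letters. A match is a description of the sequence and not a binding site.

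Between the telomerase-proficient genotypes Bax differed by a log2 fold change of -0.083 (Puma-/- against WT, SE 0.126, edgeR adjusted p = 0.854). The mean was 79.9 ± 2.67 (SD, n = 3) normalized CPM in WT and 100.9 ± 14.6 (n = 4) in G3 mTerc-/-Puma+/+, a log2 difference of 0.34 (SE 0.127, edgeR adjusted p = 0.998). The DKO-labelled libraries had 111 ± 16.6 normalized CPM (n = 3), a log2 difference from WT of 0.47 (SE 0.135, edgeR adjusted p = 0.504). Neither passed the threshold, although the groups did not overlap in either comparison, which held for 1 of the 8 genes beside 4.07% and 8.51% of all genes.

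Against Puma-/-, which had 75.4 ± 9.08 normalized CPM (n = 4), Bax was 0.42 higher on the log2 scale in G3 mTerc-/-Puma+/+ (SE 0.117, 95% interval 0.17 to 0.67, edgeR adjusted p = 0.1002). The DKO-labelled libraries were 0.56 higher on that scale (SE 0.126, 95% interval 0.29 to 0.83, edgeR adjusted p = 0.0899) and did not overlap with Puma-/-, again 1 of 8 beside 9.57% of all genes. The other comparisons had 0 of 8 genes free of overlap, beside 9.7% of all genes in Puma-/- against WT, 10.8% in G3 mTerc-/-Puma+/+ against Puma-/-, 5.57% between the G3 groups and 0.158% for both G3 genotypes against the other 2. Between the G3 groups the log2 difference was 0.14 (95% interval -0.13 to 0.41, edgeR adjusted p = 0.952), and the interaction was 0.22 (95% interval -0.16 to 0.60, edgeR adjusted p = 0.999). These intervals do not show that Bax was alike with and without the Puma label.

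Taking both G3 genotypes against WT and Puma-/- gave the most precise estimate for Bax, a log2 difference of 0.45 or 1.36-fold (SE 0.0896, 95% interval 0.25 to 0.64, edgeR adjusted p = 0.0711). By p, Bax ranked 59 of 18983 genes there. The call depended on the setting. The adjusted p for this contrast was 0.0410 in edgeR with library size alone, 0.0364 with no filter on low counts and 0.00104 in DESeq2, and it was 0.211 in edgeR with Xist as a covariate. Leaving out Puma-/- replicate 3 gave 0.0442, leaving out G3 mTerc-/-Puma+/+ replicate 4 gave 0.0334 and leaving out DKO-labelled replicate 1 gave 0.0303, all adjusted p in edgeR. Against Puma-/- alone, the DKO-labelled libraries had an adjusted p of 0.0497 without their replicate 1 and of 0.00531 in DESeq2, and G3 mTerc-/-Puma+/+ had 0.0232 in DESeq2. Other settings went the other way for these pairs. The adjusted p of the DKO-labelled libraries against Puma-/- was 0.386 without their replicate 3, 0.299 without their replicate 4 and 0.241 with Xist as a covariate, and that of G3 mTerc-/-Puma+/+ against Puma-/- was 0.446 with Xist, all in edgeR. The direction stayed upward in all these settings.

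Xist, the RNA of the inactive X chromosome, separated Puma-/- from G3 mTerc-/-Puma+/+ and varied widely within WT and the DKO-labelled libraries. It lay between 466 and 868 normalized CPM in Puma-/-, where Bax was lowest on average, did not exceed 88.9 in G3 mTerc-/-Puma+/+, and ran from 1.73 to 418 in WT and from 0.388 to 663 in the DKO-labelled libraries. With Xist as a covariate the log2 difference of Bax between both G3 genotypes and the other 2 was 0.39. A list of 8 marker genes of megakaryocytes and platelets was highest in Puma-/-. Its summed level was 357 to 590 normalized CPM there, against 140 to 302 in WT and 135 to 238 in the G3 libraries. The part of these marker genes' cells in the Bax values was not tested.

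Bak1 (ENSMUSG00000057789, chromosome 17, 27019810 to 27029009, minus strand), the second effector gene, was more even than Bax. It ranged from 94.1 to 108 normalized CPM in Puma-/-, from 103 to 117 in WT and from 107 to 122 in the DKO-labelled libraries, of which the left-out replicate 2 had 108. In G3 mTerc-/-Puma+/+ it was at 115, 147, 105 and 103, so that replicate 2 alone lay above all other libraries. No pair of genotypes was free of overlap. The log2 differences of the 6 pairs lay between -0.11 and 0.21, and their 95% intervals between -0.35 and 0.43 (edgeR adjusted p at least 0.31). The largest was that of G3 mTerc-/-Puma+/+ over Puma-/-, which was 0.091 without G3 mTerc-/-Puma+/+ replicate 2. Of its exon bases, 18.2% overlap the gene Ggnbp1 on the opposite strand, and the strand setting of the counting is not given in the sources used here.

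**Figure D2:**
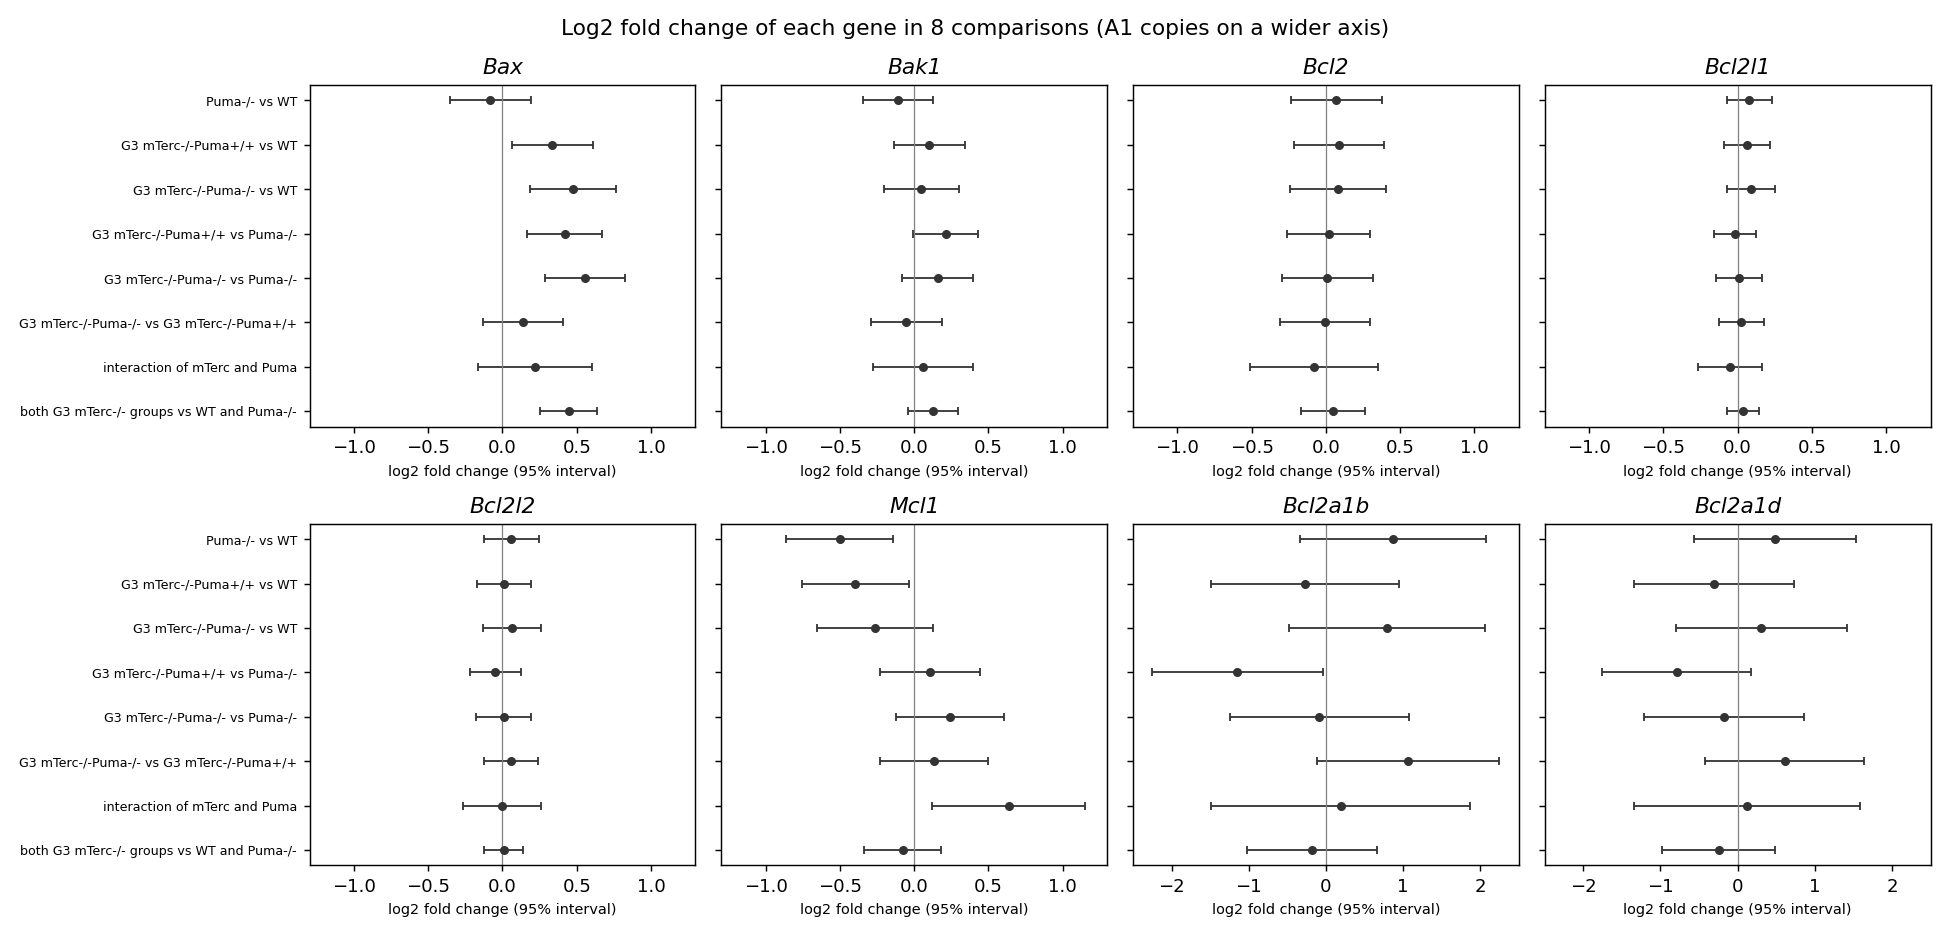
Log2 fold change of each of the 8 genes in the 8 comparisons (horizontal axis, with a wider scale for the A1 copies), from 1 edgeR fit over 14 libraries. Points are estimates and bars 95% intervals before adjustment; the bars of Bax clear 0 in the 5 comparisons that set a G3 group against a telomerase-proficient one, and those of Bcl2, Bcl2l1 and Bcl2l2 span 0 in all 8.

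Among the pro-survival genes, Mcl1 (ENSMUSG00000038612, chromosome 3, 95658788 to 95663176, plus strand) varied most in absolute level. It encodes a short-lived protein that stem and progenitor cells depend on. The WT libraries were at 411, 249 and 416 normalized CPM. The Puma-/- libraries were at 239.9, 260.5, 261 and 251, a narrow range that lay within the WT range except for replicate 1. G3 mTerc-/-Puma+/+ was at 272, 316, 248 and 255, and DKO-labelled replicates 1, 3 and 4 were at 370.5, 283 and 243, with 178 in the left-out replicate 2. High values were therefore held by WT replicates 1 and 3 and by DKO-labelled replicate 1, and no 2 genotypes were free of overlap.

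On the log2 scale Mcl1 differed from WT by -0.50 in Puma-/- (SE 0.169, 95% interval -0.87 to -0.14, edgeR adjusted p = 0.398) and by -0.40 in G3 mTerc-/-Puma+/+ (SE 0.169, edgeR adjusted p = 0.998). The interaction was 0.64 (SE 0.239, 95% interval 0.12 to 1.15, edgeR adjusted p = 0.907). All 3 contrasts involve WT, and without WT replicate 2 the difference of Puma-/- from WT was -0.71 with an adjusted p of 0.0909 in edgeR, while without WT replicate 3 it was -0.38 with an adjusted p of 0.995. Between the G3 groups the log2 difference was 0.13 (95% interval -0.23 to 0.50), and it turned to -0.021 with all 15 libraries and to -0.051 without DKO-labelled replicate 1.

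The level of Mcl1 moved with that of 10 immediate early genes, such as Fos, Jun and Egr1, which cells switch on within minutes of a stimulus. This list was chosen after the Mcl1 values had been seen. The summed level of the list was 6227 and 6526 normalized CPM in WT replicates 1 and 3 and 6234 in DKO-labelled replicate 1, and it did not exceed 4558 in the other 12 libraries. Pearson's r of the log2 values was 0.905 over 15 libraries and 0.879 over 14, which share depth and cell mixture across genes. Their part in the Mcl1 values was not tested.

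**Figure D3:**
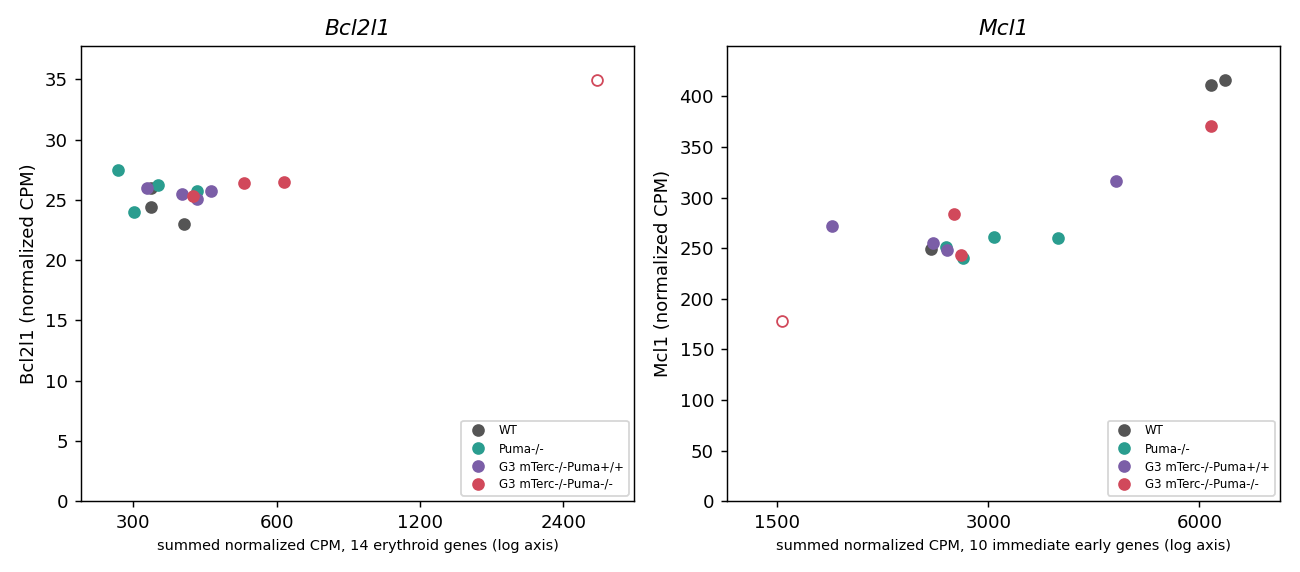
Normalized CPM of Bcl2l1 against the summed normalized CPM of 14 erythroid genes, and of Mcl1 against that of 10 immediate early genes, with 1 point per library and a log horizontal axis. The open point is replicate 2 of the DKO-labelled libraries (G3 mTerc-/-Puma-/-), which has the highest erythroid sum, 2824, with the highest Bcl2l1, 35.0; the 3 libraries with the highest immediate early sums, 6227 to 6526, have the 3 highest Mcl1 levels.

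Bcl2 (ENSMUSG00000057329, chromosome 1, 106538178 to 106714274, minus strand) encodes the founding member of the family, on which lymphocytes depend. Its mean was 68.5 ± 9.56 normalized CPM in WT (SD, n = 3). Puma-/- had 71.9 ± 12.8 (n = 4), G3 mTerc-/-Puma+/+ had 72.9 ± 9.32 (n = 4), and the DKO-labelled libraries had 72.5 ± 7.05 (n = 3). The libraries of each genotype overlapped with those of every other. The 6 pairs had log2 differences between -0.0073 and 0.089, with 95% intervals between -0.31 and 0.41 (edgeR adjusted p at least 0.89). The left-out replicate 2 had the lowest level of all libraries, 51.5 normalized CPM. A gene on the opposite strand, D630008O14Rik, shares 6.09% of the exon bases of Bcl2.

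Bcl2l1 (ENSMUSG00000007659, chromosome 2, 152780668 to 152831728, minus strand), which encodes BCL-XL, was the most even of the 8 genes among the 14 libraries tested. It ran from 23.0 to 26.0 normalized CPM in WT, from 24.0 to 27.5 in Puma-/-, from 25.1 to 26.0 in G3 mTerc-/-Puma+/+ and from 25.3 to 26.5 in the DKO-labelled libraries. All 4 ranges overlapped. The 6 log2 differences lay between -0.016 and 0.09 and their 95% intervals between -0.16 and 0.25 (edgeR adjusted p at least 0.72).

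The left-out replicate 2 had 35.0 normalized CPM of Bcl2l1, above every other library. With all 15 libraries the log2 difference of the DKO-labelled libraries from WT was 0.21 rather than 0.09, still short of the threshold (edgeR adjusted p = 0.6). That library also had the highest summed levels of erythroid genes (2824 normalized CPM), primary granule genes (27857), late neutrophil genes (5071), T and NK cell genes (677) and resident macrophage genes (338). Over the other 14 libraries the Pearson's r of Bcl2l1 with the erythroid sum was 0.130, against 0.842 over all 15. The part of these cells in the value was not tested.

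Bcl2l2 (ENSMUSG00000089682, chromosome 14, 54883377 to 54888234, plus strand), which encodes BCL-W, behaved in the same even way. It ran from 16.9 to 20.4 normalized CPM over the 14 libraries and was at 23.7 in the left-out replicate 2. The 6 log2 differences lay between -0.049 and 0.066 and their 95% intervals between -0.22 and 0.26 (edgeR adjusted p at least 0.795). Gm20521, listed on the same strand, shares 13.3% of its exon bases and had 0 counts in every library. Reads in these shared bases may have been counted for neither gene.

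The last pair, Bcl2a1b (ENSMUSG00000089929, chromosome 9, 89199209 to 89207827, plus strand) and Bcl2a1d (ENSMUSG00000099974, chromosome 9, 88723285 to 88731914, minus strand), are copies of the gene for A1, an inducible pro-survival protein of activated immune cells. They share most of their sequence. Of 516 coding bases the 2 copies differ at 6 (98.8% identity), and the third full copy, Bcl2a1a, differs from Bcl2a1b at 11 and from Bcl2a1d at 7. Of all stretches of 100 bases, 56.8% in the transcript of Bcl2a1b and 54.7% in that of Bcl2a1d occur in another annotated gene as well. The first 120 coding bases of the 3 copies (GENCODE vM21 on GRCm38, 5′ to 3′) are shown with the 7 positions at which they differ in capitals.
Bcl2a1a: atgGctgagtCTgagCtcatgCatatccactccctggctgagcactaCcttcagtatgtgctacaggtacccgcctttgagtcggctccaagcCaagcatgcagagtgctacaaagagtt
Bcl2a1b: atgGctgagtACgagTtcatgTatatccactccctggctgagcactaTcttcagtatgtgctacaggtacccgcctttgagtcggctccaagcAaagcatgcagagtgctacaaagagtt
Bcl2a1d: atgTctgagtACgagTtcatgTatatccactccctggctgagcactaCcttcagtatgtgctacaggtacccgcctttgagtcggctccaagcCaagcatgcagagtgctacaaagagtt
Outside the capitals these stretches are the same, so a read within them can be assigned to 1 copy only where it covers such a position. A further listed gene on the same strand, Gm29094, shares 49.1% of the exon bases of Bcl2a1b and had 0 counts. Reads in these shared bases may have been counted for neither gene, whereas exons of Bcl2a1d overlap no listed gene.

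Both copies were scarce and uneven. Bcl2a1b was at 0.25, 0.36 and 0.16 normalized CPM in WT, at 0.24, 0.61, 0.24 and 0.79 in Puma-/-, at 0.39, 0.089, 0.23 and 0.13 in G3 mTerc-/-Puma+/+ and at 0.62, 0.48 and 0.24 in DKO-labelled replicates 1, 3 and 4, from 9 to 98 counts a library, with 0.44 in the left-out replicate 2. Bcl2a1d was at 1.27, 1.96 and 1.09, at 1.34, 2.84, 1.45 and 2.44, at 2.34, 0.36, 0.97 and 0.97, and at 2.15, 2.07 and 1.13 normalized CPM in the same order, with 0.92 in the left-out replicate 2. In each group the libraries with much of 1 copy had much of the other, with Pearson's r of 0.844 over 15 libraries. The part of shared reads in this likeness was not tested. All genotypes overlapped in both copies.

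The widest difference among all 8 genes was that of Bcl2a1b between G3 mTerc-/-Puma+/+ and Puma-/-, a log2 fold change of -1.15 (SE 0.516, 95% interval -2.26 to -0.038, edgeR adjusted p = 0.277). Bcl2a1d gave -0.79 in that comparison (SE 0.449, 95% interval -1.76 to 0.18, edgeR adjusted p = 0.387). Between the G3 groups, with the DKO-labelled libraries first, Bcl2a1b gave 1.07 (95% interval -0.11 to 2.24) and Bcl2a1d 0.61 (95% interval -0.42 to 1.64). The standard errors of these 4 estimates ran from 0.449 to 0.546. Without replicate 1 of G3 mTerc-/-Puma+/+, the highest of its group for both copies, Bcl2a1d differed by -1.39 from Puma-/- (edgeR adjusted p = 0.0995), and without replicate 2, the lowest of that group, by -0.48 (edgeR adjusted p = 0.678).

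The sum over Bcl2a1a, Bcl2a1b and Bcl2a1d does not depend on how counted reads were split among these copies. Reads left uncounted because they match several copies, or lie in bases shared with Gm29094, would be missing from it. This A1 sum was at 2.02 ± 0.695 normalized CPM in WT (SD, n = 3). Puma-/- had 2.99 ± 1.18 (n = 4), G3 mTerc-/-Puma+/+ had 1.65 ± 1.07 (n = 4), and the DKO-labelled libraries had 2.60 ± 0.765 (n = 3), with 1.72 in the left-out replicate 2. The ranges overlapped between all groups. Marker genes of B cells, 13 in all, differed between the groups too, with summed levels of 135 to 154 normalized CPM in WT, 175 to 211 in Puma-/-, 83.6 to 141 in G3 mTerc-/-Puma+/+ and 259 to 378 in DKO-labelled replicates 1, 3 and 4. The left-out replicate 2 had a B cell sum of 104, below WT and within the range of G3 mTerc-/-Puma+/+. Over the 14 libraries tested, Pearson's r of log2 values with resident macrophage genes was 0.689 for Bcl2a1b and 0.724 for Bcl2a1d. With the B cell genes it was 0.588 and 0.579. Over all 15 libraries the values with resident macrophage genes were 0.642 and 0.422, against 0.501 and 0.604 with the B cell genes. The part of either cell type in the A1 values was not tested.

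**Figure D4:**
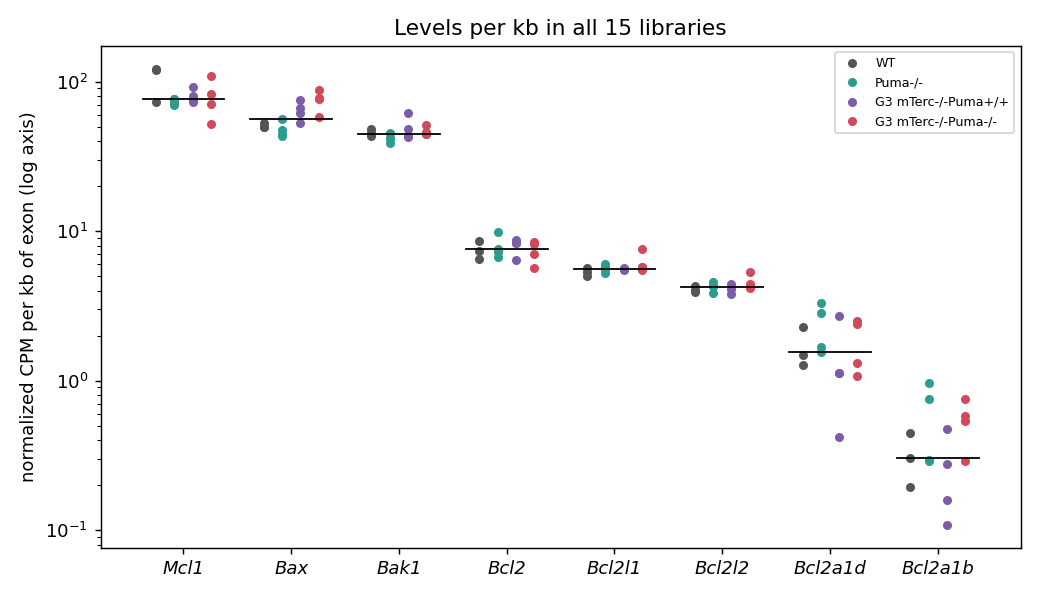
Normalized CPM per kilobase of exon (log axis) of the 8 genes in all 15 libraries, with 1 point per library coloured by genotype and a line at the median of the 15. Mcl1, Bax and Bak1 lie well above the other 5 genes in every library. The A1 copies lie lowest, although reads from their shared sequence may be missing from the counts.

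To compare levels between genes, normalized CPM was divided by the length of all annotated exons. Mcl1 led with a median of 76.2 normalized CPM per kb over 15 libraries, and Bax (56.0) and Bak1 (44.8) followed. The other pro-survival genes lay far lower on this scale, with Bcl2 at 7.59, Bcl2l1 at 5.62, Bcl2l2 at 4.25, Bcl2a1d at 1.56 and Bcl2a1b at 0.30. The A1 values may be too low, as 54.7% and 56.8% of the 100-base stretches of Bcl2a1d and Bcl2a1b occur in another annotated gene. Reads that match several genes may not have been counted, nor reads in the 49.1% of Bcl2a1b exon bases shared with Gm29094. The rank of the A1 copies, also against each other, is thus uncertain. With all exons as length, Mcl1 made up 72.0% to 87.3% of the summed per-kb level of the 6 pro-survival genes in each library. With the longest transcript as length the share is smaller, since Bcl2, Bcl2l1 and Bcl2l2 rise and Mcl1 does not.

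The order held within every library for most neighbours. Bax exceeded Bak1, Bak1 exceeded Bcl2, Bcl2l1 exceeded Bcl2l2, Bcl2l2 exceeded Bcl2a1d and Bcl2a1d exceeded Bcl2a1b in 15 of 15 libraries. Mcl1 exceeded Bax in 13 of 15 and Bcl2 exceeded Bcl2l1 in 14 of 15. Both of these orders turned when the longest transcript was used as length, with medians of 80.3 per kb for Bax against 76.2 for Mcl1 and of 10.03 for Bcl2l1 against 9.67 for Bcl2. Neither pair can be ranked from these data. The orders of Bcl2l2 over Bcl2a1d and of Bcl2a1d over Bcl2a1b are uncertain too, as reads in shared sequence may not have been counted. A level of RNA does not give the level of these proteins.

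The rest of the mitochondrial pathway was read from lists chosen for their roles. Of the BH3-only genes, which act upstream of the 8 genes, 7 of 8 were tested, and Bbc3 alone passed. From WT to Puma-/- it fell by 1.70 on the log2 scale (SE 0.267, edgeR adjusted p = 0.0276). It was higher than in Puma-/- by 1.62 in G3 mTerc-/-Puma+/+ (SE 0.253, edgeR adjusted p = 0.0156) and by 1.48 in the DKO-labelled libraries (SE 0.266, edgeR adjusted p = 0.0345). These calls of Bbc3 held in 14, 21 and 14 of 24 other settings, in that order. The other lists held 6 tested other BCL2 relatives, 15 genes of the apoptosome and the caspases beyond it and 15 binding partners and regulators of the 8 genes. Of these, 0 passed in edgeR in any comparison, beside 0.0369% to 0.801% of all genes. At an unadjusted p under 0.05 in edgeR there were 0 to 4 of a list. The 4 were of the 15 partners and regulators in G3 mTerc-/-Puma+/+ against Puma-/-, beside 17.1% of all genes.

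In both G3 genotypes against the other 2, 5 of the 12 genes of the p53 axis rose and 0 fell beside 0.263% of all genes, with a median log2 difference of 0.33 against 0.010 for all genes. They were Ccng1 (0.69, SE 0.092, edgeR adjusted p = 0.00475), Cdkn1a (1.21, SE 0.189, edgeR adjusted p = 0.0167), Eda2r (2.64, SE 0.361, edgeR adjusted p = 0.00562), Phlda3 (1.98, SE 0.22, edgeR adjusted p = 0.00137) and Zmat3 (1.48, SE 0.183, edgeR adjusted p = 0.00278). Cdkn1a encodes the cell cycle inhibitor p21, Ccng1 cyclin G1, Eda2r a death receptor of the TNF receptor family, Phlda3 an inhibitor of AKT and Zmat3 an RNA-binding protein. The log2 difference of Bax, 0.45, was smaller than that of each of these 5 genes, which are named because they passed. It was larger than the median of all 12 genes, 0.33. Against WT, 0 of 12 passed in edgeR in G3 mTerc-/-Puma+/+ beside 0.0369% of all genes, and 5 had an unadjusted p under 0.05 beside 3.86%. In the DKO-labelled libraries 3 rose against WT (Eda2r, Phlda3 and Zmat3) beside 0.0632%. Against Puma-/-, 2 rose in G3 mTerc-/-Puma+/+ (Ccng1 and Cdkn1a) beside 0.801% of all genes. The DKO-labelled libraries had 4 that rose against Puma-/- (Ccng1, Cdkn1a, Phlda3 and Zmat3) beside 0.306%. Between the G3 groups 0 passed in edgeR beside 0.0738%, and 3 had an unadjusted p under 0.05 beside 6.22%. Several of these calls were lost in most of the 24 other settings run. Eda2r in the DKO-labelled libraries against WT kept its call in 6 of 24 (edgeR, DESeq2 or limma adjusted p up to 0.214), and in G3 mTerc-/-Puma+/+ against Puma-/- Ccng1 kept it in 9 (up to 0.205) and Cdkn1a in 8 (up to 0.222). The other p53 axis calls against WT or Puma-/- alone held in 16 to 24 of 24, and those of both G3 genotypes in 22 or 23 of 23. These comparisons share libraries and are not independent.

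As a description, the 3 genes most like each of the 8 were taken by Pearson's r of log2 CPM over the 15 libraries, which share depth, cell mixture and genotype. For Bax they were Pvt1 (0.923), Ei24 (0.914) and Commd3 (0.901). For Bak1 they were the glycolysis genes Aldoa (0.97) and Gapdh (0.961) and the ATP synthase gene Atp5b (0.962). For Mcl1 they were Tiparp (0.969), Zfp143 (0.958) and Sertad1 (0.956). Bcl2 was most like Rragb (0.86), Rrm2b (0.858) and Galnt11 (0.842), and Bcl2l2 most like Agrn (0.943), Arhgef25 (0.922) and Gm12847 (0.92). The A1 copies were most like genes of immune cells in part, with the class I genes H2-Q2 (0.884) and H2-Q7 (0.877) and the signalling adaptor gene Traf1 (0.88) for Bcl2a1b, and Prr5l (0.938), Abcg3 (0.93) and Trim12c (0.919) for Bcl2a1d. Bcl2l1 was most like Gypc (0.899), Tinagl1 (0.898) and Hebp1 (0.895), and without the left-out replicate 2 these values were 0.481, 0.530 and 0.427.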

How the data were processed

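Polyadenylated RNA of lineage-negative bone marrow cells was sequenced with a stranded kit. The authors deposited raw counts per Ensembl gene for the 15 libraries. The submitters' processing notes name Trimmomatic 0.38 and STAR 2.5.2b, and the genome was GRCm38. The annotation release and the strand setting of the counting are not given in the sources used here. Symbols were taken from GENCODE vM21, and 563 identifiers without a symbol held 0.0643% of the counts.

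Counts were filtered with filterByExpr, scaled by TMM (factors 0.926 to 1.07) and fitted with edgeR 4.0.16 in R 4.3.3. The quasi-likelihood test used 1 fit over 14 libraries of 4 groups, with Benjamini-Hochberg adjustment over 18983 genes and a threshold of 0.05. The study's methods use limma, and limma-voom (3.58.1) and DESeq2 (1.42.0) were run as alternatives, as were other scalings, filters, all 15 libraries, Xist as a covariate, a replicate block and leaving out each library. Standard errors are the log2 fold change over the square root of F. The fit was first tested on simulated data. The changes put in were larger than those of Bax and Mcl1, in genes with more counts than Bcl2a1b. That test thus does not tell whether changes like those of these 3 genes could be called. Replicates differed by more than sampling noise, so none was a library deposited again. The 8 genes, the gene lists and the tests were chosen with earlier results of these data known. Genes outside the 8 are named where they belong to these lists and passed the test, or as the 3 most like each of the 8. Besides these, Terc, Xist, single cell markers such as Kit and Pf4, and examples of the immediate early genes are named to describe the libraries. Bcl2a1a and the genes that overlap exons of the 8 are named for their shared sequence.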

Additional observations from a re-analysis of the deposited data

Results flagged for a closer look

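Bcl2l1 in DKO-labelled replicate 2 lay far from the rest of its group, at 35.0 normalized CPM against 25.3 to 26.5 in the other 3 libraries. The gap to the nearest library made up 0.878 of the range of the group, above Dixon's 95% critical value for 4 samples. It was the single such case among 24 groups of 4 libraries examined for the 8 genes, and chance gives about 1 in 20. This library was left out of the tests.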

How the results depend on the processing

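In the 8 comparisons 0 of the 8 genes passed in edgeR, and the count became 1, always Bax, in both G3 genotypes against the other 2 with library size alone, with no filter on low counts and in DESeq2. It also became 1 in DESeq2 in G3 mTerc-/-Puma+/+ against Puma-/- and in the DKO-labelled libraries against Puma-/-. Leaving out 1 library at a time gave 0 to 1 in both G3 genotypes against the other 2 (1 without Puma-/- replicate 3, G3 mTerc-/-Puma+/+ replicate 4 or DKO-labelled replicate 1) and 0 to 1 in the DKO-labelled libraries against Puma-/- (1 without their replicate 1). The cause was not tested. Over the settings that left out no further library, the log2 difference of Bax in both G3 genotypes stayed between 0.39 and 0.49, with adjusted p from 0.00104 to 0.211. Of the values of the 8 genes under other settings, 587 kept their direction and side of the threshold, 5 passed it and 24, none of them past it, changed sign.

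The sign turned with all 15 libraries for Bcl2 in the DKO-labelled libraries against WT (-0.027), Bcl2 in the DKO-labelled libraries against Puma-/- (-0.097), Mcl1 in the G3 groups against each other (-0.021), Bcl2l1 in the interaction (0.065), Bcl2l2 in the interaction (0.083), Bcl2a1d in the interaction (-0.056) and Bcl2 in both G3 genotypes against the other 2 (-0.0038). It turned with library size alone for Bcl2 in G3 mTerc-/-Puma+/+ against Puma-/- (-0.024), Bcl2 in the DKO-labelled libraries against Puma-/- (-0.0053), Bcl2l1 in the DKO-labelled libraries against Puma-/- (-0.0016), Bcl2l2 in the DKO-labelled libraries against Puma-/- (-0.0066) and Bcl2 in the G3 groups against each other (0.018). It turned with DESeq2 size factors in edgeR for Bcl2l2 in the interaction (0.0086). It turned with no filter on low counts for Bcl2l2 in the interaction (0.017). It turned with at least 1 CPM in 3 libraries for Bcl2l2 in the DKO-labelled libraries against Puma-/- (-0.00028) and Bcl2 in the G3 groups against each other (0.0012). It turned with Xist as a covariate for Bcl2l1 in the DKO-labelled libraries against Puma-/- (-0.015), Bcl2a1b in the DKO-labelled libraries against Puma-/- (0.18), Bcl2a1d in the DKO-labelled libraries against Puma-/- (0.078), Bak1 in the G3 groups against each other (0.0019), Bcl2l2 in the interaction (0.0050) and Bcl2a1b in both G3 genotypes against the other 2 (0.0057). It turned in DESeq2 for Bcl2l2 in the interaction (0.0082). It turned in limma-voom for Bcl2a1b in the DKO-labelled libraries against Puma-/- (0.036).

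Leaving out 1 library changed the sign of 25 differences, whose lowest and highest log2 values over the left-out libraries follow. In the G3 groups against each other they were -0.11 to 0.069 for Bak1, -0.10 to 0.070 for Bcl2 and -0.051 to 0.26 for Mcl1. In the DKO-labelled libraries against WT they were -0.012 to 0.096 for Bak1 and -0.0087 to 0.18 for Bcl2. In G3 mTerc-/-Puma+/+ against WT they were -0.031 to 0.16 for Bak1, -0.00077 to 0.19 for Bcl2, -0.79 to 0.063 for Bcl2a1b and -0.034 to 0.047 for Bcl2l2. In the interaction they were -0.0032 to 0.19 for Bak1, -0.17 to 0.059 for Bcl2, -0.15 to 0.71 for Bcl2a1b, -0.16 to 0.74 for Bcl2a1d, -0.099 to 0.0064 for Bcl2l1 and -0.039 to 0.049 for Bcl2l2. In the DKO-labelled libraries against Puma-/- they were -0.056 to 0.14 for Bcl2, -0.41 to 0.29 for Bcl2a1b, -0.34 to 0.064 for Bcl2a1d, -0.025 to 0.040 for Bcl2l1 and -0.033 to 0.045 for Bcl2l2. In G3 mTerc-/-Puma+/+ against Puma-/- they were -0.049 to 0.14 for Bcl2 and -0.051 to 0.0100 for Bcl2l1. In Puma-/- against WT they were -0.061 to 0.17 for Bcl2. In both G3 genotypes against the other 2 they were -0.43 to 0.0057 for Bcl2a1b and -0.019 to 0.027 for Bcl2l2.

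The deviations of same-numbered libraries from their group means were at most weakly correlated (21 pairs, r from -0.253 to 0.182, 5 over 0.1). The main fit did not use the numbers as pairs, although this check cannot exclude a shared origin. With the replicate block the difference of Bax was 0.47 in both G3 genotypes against the other 2 (edgeR adjusted p = 0.0717) and 0.59 in the DKO-labelled libraries against Puma-/- (edgeR adjusted p = 0.104), and the block changed no call of the 8 genes. Over all genes it gave 43 calls rather than 152 in G3 mTerc-/-Puma+/+ against Puma-/-, 21 rather than 58 in the DKO-labelled libraries against Puma-/- and 23 rather than 50 in both G3 genotypes. DESeq2 gave 1004, 287 and 252 in these 3 comparisons, and 137, 46, 89, 172 and 64 rather than 15, 7, 12, 14 and 10 in Puma-/-, G3 mTerc-/-Puma+/+ and the DKO-labelled libraries against WT, between the G3 groups and in the interaction. Xist as a covariate gave 18, 33 and 27 in the first 3, and all 15 libraries gave 24 in G3 mTerc-/-Puma+/+ against Puma-/-, 32 in both G3 genotypes, 4 in G3 mTerc-/-Puma+/+ against WT and 6 between the G3 groups. Between the G3 groups there were 33 with no filter and 8 with library size alone. Limma-voom gave 30 in both G3 genotypes and 5 in the interaction. Fitting only the groups compared gave 90 in the DKO-labelled libraries against Puma-/-, 3 in G3 mTerc-/-Puma+/+ against WT, 5 in the DKO-labelled libraries against WT and 2 between the G3 groups. Of the other named genes, 134 values under other settings kept their call and 31 lost it, and of those with 1 library left out 177 kept it and 61 lost it. Bcl2a1b had no value with at least 1 CPM in 3 libraries, and the interaction and the contrast of both G3 genotypes cannot be fitted on 2 groups alone. Bcl2a1b rests on 9 to 98 counts a library.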

Other observations

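Across libraries, the levels of Bcl2, Bak1 and Bax were set beside the summed levels of 11 lists of cell type markers, and the lists with the largest Pearson's r of log2 values are given for each gene. The libraries share depth, genotype and cell mixture, and these values are a description. Bcl2 had -0.840 with primary granule genes of myeloid cells over 15 libraries (-0.778 over the 14 tested) and 0.785 with stem and progenitor genes (0.661 over 14). Bak1 had -0.587 with stem and progenitor genes (-0.884 over 14) and 0.526 with primary granule genes (0.635 over 14). Bax had similar values with several lists, at 0.735 for T and NK cell genes (0.619 over 14), 0.722 for late neutrophil genes (0.626), -0.713 for stem and progenitor genes (-0.579), -0.635 for megakaryocyte and platelet genes (-0.602) and -0.632 for mast cell and basophil genes (-0.500).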
